A study of Homo sapiens with 8 samples.

Results

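The genes described here are 10 members of the BCL2 family, which decides at the mitochondrion whether a stressed cell dies by apoptosis. They were chosen by name: 2 anti-apoptotic genes (BCL2L1 and MCL1), 2 effector genes (BAX and BAK1) and 6 BH3-only genes (BCL2L11, BBC3, PMAIP1, BID, BIK and BMF). Each symbol was found on exactly 1 row of 48405 in each deposited table, and all 10 rows lay above 0 in all 8 libraries, so no member was lost to a filter on low values. Polyadenylated RNA came from HCC4006 and HCC827, human non-small cell lung cancer lines whose growth depends on mutant EGFR. The 4 groups were HCC4006 made resistant to gefitinib, an EGFR kinase inhibitor, HCC4006 carried in DMSO, HCC827 made resistant to gefitinib and HCC827 carried in DMSO, with 2 libraries each, A and B. Cultures counted as resistant once they grew routinely in 3 µM gefitinib, and the labels do not say how many resistant cultures or clones the libraries came from. Both DMSO and resistant cultures were kept in serum-containing medium, and resistance and the presence of the drug cannot be told apart. The labels do not tie a pair of libraries to separate cultures, and p-values then measure only how far these samples spread, possibly for technical reasons.

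In this family, the anti-apoptotic proteins BCL-XL (from BCL2L1) and MCL1 hold the effectors BAX and BAK in check, and BH3-only proteins release or activate the effectors. Freed effectors make holes in the outer mitochondrial membrane, cytochrome c escapes and caspases are switched on. In EGFR-mutant lung cancer, EGFR inhibitors are known to kill largely through BIM, the product of BCL2L11, which ERK signalling otherwise keeps low. The values below are RNA levels per gene. They do not separate splice forms such as the long and short products of BCL2L1, and they do not measure protein.

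Levels are given as FPKM, a fragment count divided by transcript length and by the size of the library, which lets genes of 1 library be compared. A change is the difference in log2(FPKM + 0.5), resistant minus DMSO, with its standard error (SE) from limma. A gene was called when its Benjamini-Hochberg adjusted p over all rows of the fit was below 0.05. The tables of the 2 lines may have been scaled separately, so levels set across lines are a description only. Depth is unknown, because FPKM carry no counts.

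Between 17406 and 19333 rows lay above 0 in a library. In each group, between 214 and 724 rows were listed at 0 in both libraries while averaging at least 50 FPKM in the others, among them HTRA2 and BNIP3L, so a 0 is given only as listed at 0. The 5 epithelial markers found (EPCAM, CDH1, KRT8, KRT19 and CLDN7) summed to 1830 and 1689 FPKM in resistant HCC4006, against 11624 and 16982 FPKM in DMSO HCC4006. They summed to 11171 and 17872 FPKM in resistant HCC827, against 16739 and 15418 FPKM in DMSO HCC827. In resistant HCC4006, 4 of the 5 were called lower, and CDH1, the E-cadherin gene, was almost absent, with 3.03 and 3.29 FPKM, against 1518 and 945 FPKM in DMSO HCC4006. The EPCAM call was lost without each library in turn (adjusted p = 0.0697 to 0.165), and the calls of CDH1, KRT19 and CLDN7 without either resistant library (0.0805 to 0.247). The immune markers PTPRC and CD3E and the endothelial marker CDH5 were at 0 in all libraries. In a library, the immune markers summed to at most 3.90 FPKM, the endothelial markers to at most 4.08 FPKM and the fibroblast markers to between 13.4 and 119.8 FPKM, nearly all from COL1A1. The part of the epithelial markers in the results below was not tested.

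Promoters are shown for 4 BH3-only genes, chosen after their values were seen: PMAIP1 and BID, with resistant libraries above the DMSO libraries in HCC4006, and BBC3 and BMF, with resistant libraries below them. None of the 4 passed the test there. RefSeq sequences were found for 8 of the 10 genes, and MCL1 and BIK had none. Each runs from 250 bases before to 50 after the gene's start, 5′ to 3′ on the gene's strand, on GRCh38.p14, a later build than the hg19 of the tables. PMAIP1 lies at chr18:59899746-59900045 on the plus strand, BID at chr22:17774420-17774719 on the minus strand, BBC3 at chr19:47232618-47232917 on the minus strand and BMF at chr15:40108830-40109129 on the minus strand. Capitals mark matches to the motifs searched.
PMAIP1: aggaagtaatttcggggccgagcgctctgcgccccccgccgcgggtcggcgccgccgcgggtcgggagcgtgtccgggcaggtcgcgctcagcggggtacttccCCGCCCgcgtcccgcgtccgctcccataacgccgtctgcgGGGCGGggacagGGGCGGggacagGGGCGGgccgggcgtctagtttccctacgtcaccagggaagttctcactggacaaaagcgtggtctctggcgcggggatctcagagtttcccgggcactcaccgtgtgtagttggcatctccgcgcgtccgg
BID: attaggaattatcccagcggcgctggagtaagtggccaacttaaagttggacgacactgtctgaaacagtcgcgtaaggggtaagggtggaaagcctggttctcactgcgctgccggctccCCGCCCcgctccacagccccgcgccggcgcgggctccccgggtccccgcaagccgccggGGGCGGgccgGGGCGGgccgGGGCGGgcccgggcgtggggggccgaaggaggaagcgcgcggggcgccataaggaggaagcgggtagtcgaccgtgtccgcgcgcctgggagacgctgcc
BBC3: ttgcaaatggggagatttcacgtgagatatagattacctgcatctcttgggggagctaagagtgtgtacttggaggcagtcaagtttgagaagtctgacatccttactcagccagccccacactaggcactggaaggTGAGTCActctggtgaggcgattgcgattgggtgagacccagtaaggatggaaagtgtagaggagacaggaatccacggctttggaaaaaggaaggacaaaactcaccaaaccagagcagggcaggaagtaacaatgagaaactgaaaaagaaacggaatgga
BMF: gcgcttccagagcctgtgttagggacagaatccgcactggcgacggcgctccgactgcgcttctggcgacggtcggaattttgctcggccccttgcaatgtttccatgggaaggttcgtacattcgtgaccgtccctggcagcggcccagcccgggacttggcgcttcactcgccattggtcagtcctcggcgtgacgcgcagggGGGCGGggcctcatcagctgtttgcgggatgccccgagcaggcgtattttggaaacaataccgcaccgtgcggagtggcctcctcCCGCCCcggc

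The motifs, searched on both strands, were CACCTG (an E-box that ZEB repressors bind), GTAAACA (FOXO factors), TGACGTCA (CREB and ATF factors), TGANTCA (AP-1), GGGCGG (the GC box of SP1), TATAAA (the TATA box) and TTTGGCGC or TTTCGCGC (E2F factors). No match overlapped another in these 4. The GC box matched 4 times in PMAIP1 and 4 times in BID, 2 times in BMF and 0 times in BBC3. Outside these 4, it matched 3 times in BCL2L11, 2 times in BAX, 2 times in BAK1 and 0 times in BCL2L1. Of all 35116 promoters, 45.0% held it. BBC3 held 1 AP-1 match, which 7.71% of all promoters held, and its window was 48% G or C against 71.3% in PMAIP1, 71.7% in BID and 65% in BMF. Among the other members, BCL2L11 held 1 FOXO match, found in 3.42% of promoters, BAX 1 E-box match, found in 20.6%, and BCL2L1 2 TATA box matches, found in 11.5% of promoters. No member with a sequence held a TGACGTCA or an E2F match, which 1.85% and 1.15% of promoters held. MCL1 and BIK could not be searched. A match is a run of letters in this window and not a shown binding site.

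The anti-apoptotic genes were the most abundant of the 10 in every group and their resistant libraries lay below the DMSO libraries in each line, without passing the test. MCL1, whose protein is short-lived and binds BIM and BAK, measured 1106 and 1024 FPKM in resistant HCC4006, against 1273 and 1266 FPKM in DMSO HCC4006. In HCC827 it measured 971 and 1086 FPKM in the resistant libraries, against 1527 and 1411 FPKM in the DMSO libraries. The groups did not overlap in either line, and resistant HCC827 averaged 0.700 of the DMSO level. The log2 change was −0.25 (SE 0.18, adjusted p = 0.488) in HCC4006 and −0.52 (SE 0.28, adjusted p = 0.417) in HCC827, and the 95% intervals ran from −0.76 to 0.25 and from −1.24 to 0.21.

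BCL2L1 measured 984 and 856 FPKM in resistant HCC4006, against 1023 and 1688 FPKM in DMSO HCC4006, a log2 change of −0.52 (SE 0.32, adjusted p = 0.443). Its HCC827 levels were 836 and 803 FPKM in the resistant libraries, against 873 and 909 FPKM in the DMSO libraries, a log2 change of −0.12 (SE 0.27, adjusted p = 0.843). The DMSO libraries of HCC4006 were 1.65-fold apart for this gene, and leaving out DMSO library B left a change of −0.16. A second row, RP11-243J16.7, shares the BCL2L1 locus on hg19 (chromosome 20, 30252254 to 30311792) and was listed at 0 throughout. None of the other 9 members overlapped another row.

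**Figure D1:**
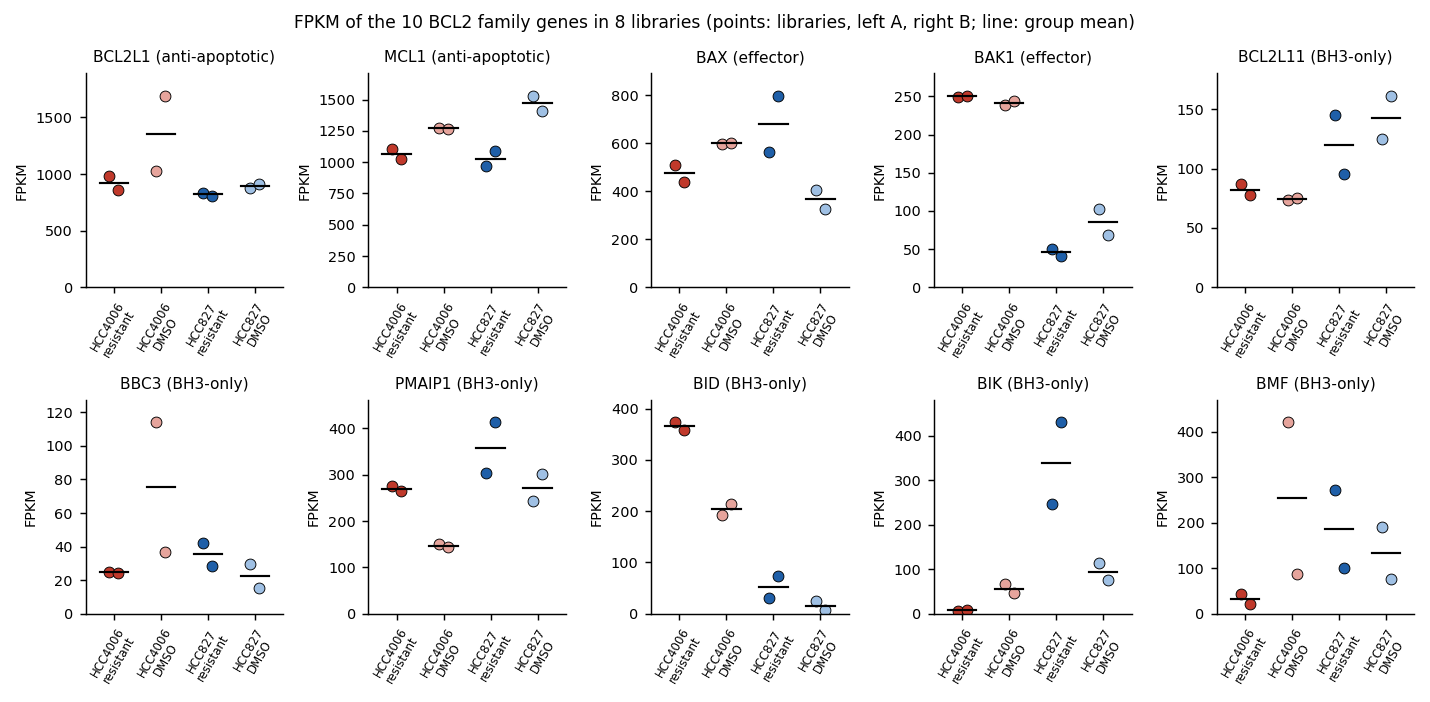
Level in FPKM (vertical axes, linear, from 0) of each of the 10 genes in the 8 libraries. Points are libraries, A left and B right, lines are group means, and the resistant group stands left of its DMSO group in each line. BIK lay at 246 and 430.1 FPKM in resistant HCC827 and at 5.51 and 9.18 FPKM in resistant HCC4006, its highest and its lowest group.

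The effector genes BAX and BAK1, whose products form the pore, stood in opposite orders in the 2 lines. BAX measured 565 and 795 FPKM in resistant HCC827, against 404 and 327 FPKM in DMSO HCC827, a log2 change of 0.88 (SE 0.32, adjusted p = 0.261). In HCC4006 it measured 511 and 439 FPKM in the resistant libraries, against 598 and 599 FPKM in the DMSO libraries, a log2 change of −0.34 (SE 0.19, adjusted p = 0.406). Both resistant libraries thus lay above both DMSO libraries in HCC827 and below them in HCC4006. The change in HCC827 exceeded that in HCC4006 by 1.22 on the log2 scale (SE 0.35, adjusted p = 0.0836), which did not pass the test. This difference ran from 0.97 to 1.47 without each library in turn.

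BAK1 measured 50.1 and 41.3 FPKM in resistant HCC827, against 103 and 68.7 FPKM in DMSO HCC827, a log2 change of −0.88 (SE 0.35, adjusted p = 0.295). In HCC4006 the 4 libraries were almost level, with 249.7 and 250.2 FPKM in the resistant libraries, against 238 and 243 FPKM in the DMSO libraries (log2 change 0.05, SE 0.18, adjusted p = 0.886, 95% interval −0.45 to 0.56). The change in HCC827 minus that in HCC4006 was −0.93 (SE 0.37, adjusted p = 0.181). BAX exceeded BAK1 by 11.3-fold and 19.2-fold in resistant HCC827, against 3.92-fold and 4.76-fold in DMSO HCC827. The same ratio was 2.05 and 1.75 in resistant HCC4006, against 2.51 and 2.46 in DMSO HCC4006. The ratio is a description, with no test.

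Among the BH3-only genes, BIK was called in HCC4006, and its change differed between the lines. BIK encodes a BH3-only protein that sits mostly at the endoplasmic reticulum. It measured 5.51 and 9.18 FPKM in resistant HCC4006, against 67.1 and 45.4 FPKM in DMSO HCC4006, so its mean was 7.66-fold lower in the resistant libraries. The log2 change was −2.87 (SE 0.39, adjusted p = 0.0295). In HCC827 it measured 246 and 430.1 FPKM in the resistant libraries, against 113 and 74.7 FPKM in the DMSO libraries. Its mean was 3.59-fold higher in resistant HCC827, a log2 change of 1.82 (SE 0.42, adjusted p = 0.107) that did not pass the test. The groups did not overlap in either line, and the order was opposite.

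The change of BIK in HCC827 minus that in HCC4006 was 4.68 on the log2 scale (SE 0.61, adjusted p = 0.0041), with a 95% interval of 3.20 to 6.17. This difference passed the test under all 17 alternatives run, with values from 4.28 to 5.09 and adjusted p-values from 0.00144 to 0.0357. The call within HCC4006 was less firm. It was lost over rows above 0 alone (adjusted p = 0.0772), with a replicate block by column letter (0.0537) and without each library in turn (0.0779 to 0.316), while the change stayed between −3.21 and −2.52 without a library. BIK lies on chromosome 22, 43506753 to 43525718 (hg19). Epithelial markers moved in the same direction as BIK in HCC4006, as given above. In HCC827, 0 of the 5 markers found were called. There KRT8 was lower in both resistant libraries, and the groups overlapped for EPCAM, CDH1, KRT19 and CLDN7. The part of these markers in the BIK level was not tested.

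The rows whose profiles over the 8 libraries, centred within each line, lay nearest to that of BIK were GRB7, AC080112.3 and FA2H, at Euclidean distances of 0.88, 0.95 and 1.09 on the log2 scale among 12782 rows. GRB7 measured 9.34 and 24.2 FPKM in resistant HCC4006, against 82.4 and 80.8 FPKM in DMSO HCC4006. GRB7 in HCC827 measured 271 and 549 FPKM in the resistant libraries, against 96.4 and 69.4 FPKM in the DMSO libraries. With 8 libraries that share 2 tables, such likeness is a description of these libraries.

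**Figure D2:**
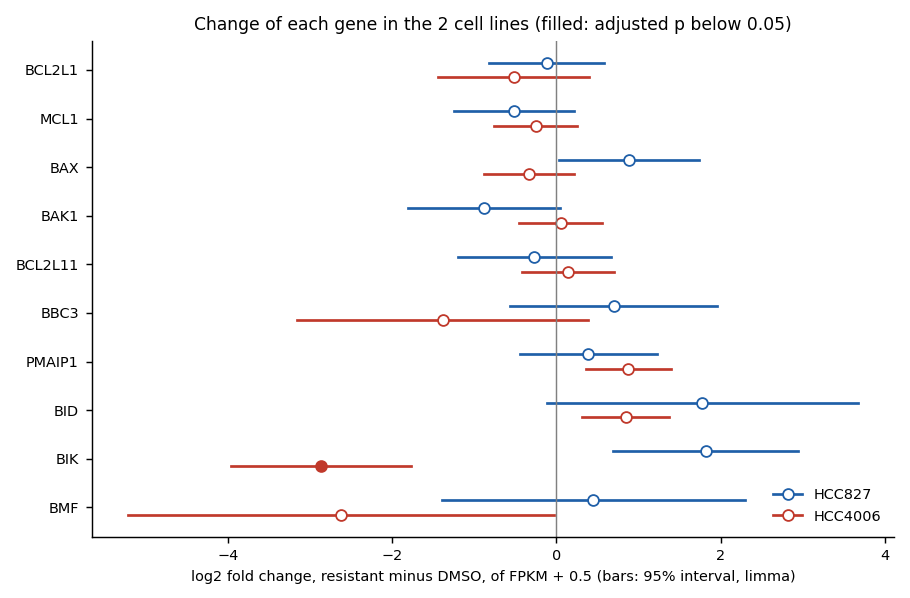
Change of each gene as log2 fold change of FPKM + 0.5, resistant minus DMSO (horizontal axis), with 95% intervals from limma, for HCC827 above and HCC4006 below in each pair. Filled points have an adjusted p below 0.05. BIK in HCC4006, at −2.87, is the filled point, and its HCC827 point lies at 1.82.

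Across the 10 members, 1 was called in HCC4006, where 9.36% of 19881 rows were called (6.37% higher, 2.98% lower), and 0 were called in HCC827, where 6.8% of 19324 rows were called (5.13% higher, 1.67% lower). At an unadjusted p below 0.05, limma picked 4 of 10 in HCC4006 (23% of all rows) and 2 of 10 in HCC827 (18.2% of all rows). The 2 groups did not overlap for 10 of 10 members in HCC4006, 4 higher and 6 lower in the resistant libraries, against 53.1% of all rows tested (26.6% higher, 26.5% lower). In HCC827 they did not overlap for 7 of 10, 4 higher and 3 lower, against 48.9% of all rows (24.3% higher, 24.7% lower). The median log2 change of the members was −0.30 in HCC4006 and 0.42 in HCC827, beside −0.01 and −0.04 over all rows tested. For the difference between the lines, 1 member was called, where 12.1% of 20685 rows were called (6.27% higher, 5.82% lower), and 4 had an unadjusted p below 0.05, as did 25.2% of rows. Over rows above 0 in every library alone, 0.534% were called in HCC4006, 0.119% in HCC827 and 1.45% for the difference, and the groups did not overlap for 51% and 46.5%.

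BCL2L11 did not pass the test in either line. It measured 86.9 and 77.6 FPKM in resistant HCC4006, against 73.3 and 75.2 FPKM in DMSO HCC4006, a log2 change of 0.14 (SE 0.20, adjusted p = 0.702) with a 95% interval of −0.42 to 0.70. In HCC827 it measured 145 and 95.6 FPKM in the resistant libraries, against 125 and 161 FPKM in the DMSO libraries, and the groups overlapped (log2 change −0.27, SE 0.35, adjusted p = 0.721, 95% interval −1.20 to 0.67). The sign in HCC827 turned without resistant library B (0.03). Relative to the sum of BCL2L1 and MCL1, its level was 0.0416 and 0.0413 in resistant HCC4006, against 0.0319 and 0.0255 in DMSO HCC4006. In HCC827 this ratio was 0.0802 and 0.0506 in the resistant libraries, against 0.052 and 0.0694 in the DMSO libraries. Its nearest rows by the same measure were SLC39A9, YES1 and LRRC61, and those of MCL1 were SGMS1, PPT1 and ATPAF1, at distances between 0.18 and 0.22.

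PMAIP1, which encodes the MCL1-binding protein NOXA, had its resistant libraries above its DMSO libraries in each line, without passing the test. It measured 275 and 265 FPKM in resistant HCC4006, against 150.2 and 143 FPKM in DMSO HCC4006, with the libraries of each group within 1.05-fold of each other. The log2 change was 0.88 (SE 0.18, adjusted p = 0.0826). Its HCC827 levels were 304 and 413 FPKM in the resistant libraries, against 243 and 301 FPKM in the DMSO libraries, a log2 change of 0.39 (SE 0.32, adjusted p = 0.563). The nearest 2 libraries of that comparison, at 304 and 301 FPKM, almost met.

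BID, whose product is cut by caspase-8 and links death receptors to the mitochondrion, measured 373 and 357 FPKM in resistant HCC4006, against 193 and 213 FPKM in DMSO HCC4006. The log2 change was 0.84 (SE 0.19, adjusted p = 0.0944), and 0.77 to 0.92 without each library in turn. It did not pass with a replicate block by column letter (adjusted p = 0.277) or in the fit of all 8 libraries (0.491). In HCC827 BID was far lower and its libraries spread more, with 31.3 and 74.1 FPKM in the resistant libraries, against 23.6 and 7.90 FPKM in the DMSO libraries (log2 change 1.78, SE 0.72, adjusted p = 0.299, and 1.02 to 2.54 without each library in turn). Neither PMAIP1 nor BID passed the test in either line over all 4 libraries, and for neither did the difference between the lines pass (adjusted p = 0.418 and 0.528).

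BMF and BBC3 differed most between the 2 libraries of DMSO HCC4006, by 2.25 and 1.62 on the log2 scale, while BID differed most in DMSO HCC827 (1.52). BMF, which encodes a BH3-only protein held by motor complexes in healthy cells, measured 43.4 and 21.8 FPKM in resistant HCC4006, against 420.0 and 87.7 FPKM in DMSO HCC4006. The log2 change was −2.62 (SE 0.91, adjusted p = 0.214), and it was −1.49 without DMSO library A and −3.75 without DMSO library B. In HCC827 it measured 272 and 99.98 FPKM in the resistant libraries, against 191 and 76.1 FPKM in the DMSO libraries (log2 change 0.45, SE 0.70, adjusted p = 0.767). Library A was higher than library B in all 4 groups for BMF, by 0.98 to 2.25 on the log2 scale, and no label says what the letters stand for. The sign in HCC827 turned without DMSO library B (−0.21) or without resistant library A (−0.27).

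BBC3, which encodes the protein PUMA, measured 24.7 and 24.4 FPKM in resistant HCC4006, against 114 and 36.7 FPKM in DMSO HCC4006. The log2 change was −1.38 (SE 0.62, adjusted p = 0.311), with −0.57 without DMSO library A and −2.19 without DMSO library B. The HCC827 levels were 42.2 and 28.4 FPKM in the resistant libraries, against 29.6 and 15.1 FPKM in the DMSO libraries, and the groups overlapped (log2 change 0.70, SE 0.48, adjusted p = 0.517, and 0.22 to 1.17 without each library in turn). Centred within each line, the BBC3 and BMF profiles had a Pearson r of 0.95 over the 8 libraries, the highest of all pairs of members, which share libraries. For both genes, library A was above library B in all 4 groups, by 0.016 to 1.62 on the log2 scale for BBC3. DMSO library A of HCC4006, where both genes peaked, also stood apart for the stress-response genes DDIT3 and ATF4, chosen after their values were seen. DDIT3, which encodes the stress factor CHOP, measured 4773 FPKM there, against 80.1 FPKM in DMSO library B and 94.9 and 76.0 FPKM in the resistant libraries. Its hg19 locus is shared with 5 other rows. ATF4 measured 1605 FPKM in DMSO library A, against 597 FPKM in DMSO library B and 905 and 970.0 FPKM in the resistant libraries. Neither gene passed limma's test in HCC4006 (adjusted p = 0.512 for DDIT3 and 0.958 for ATF4). In HCC827, DDIT3 measured 370.4 and 205 FPKM in the resistant libraries, against 47.0 and 86.2 FPKM in the DMSO libraries (adjusted p = 0.102), and ATF4 974 and 1095 FPKM, against 452 and 607 FPKM (adjusted p = 0.195). The part of these values in the BMF and BBC3 values was not tested.

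**Figure D3:**
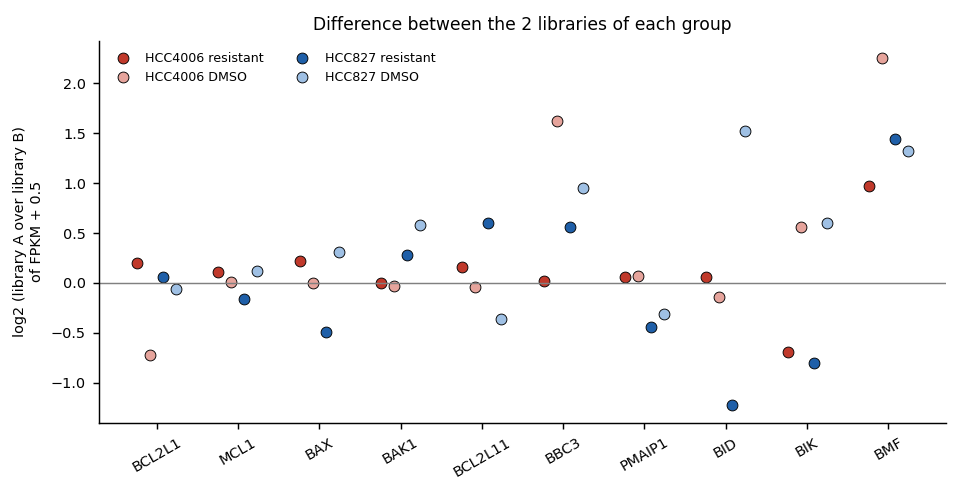
Difference between the 2 libraries of each group as log2 of library A over library B of FPKM + 0.5 (vertical axis), for the 10 genes (horizontal axis). Points above 0 are higher in library A. BMF lies above 0 in all 4 groups, up to 2.25 in DMSO HCC4006, while MCL1 lies between −0.16 and 0.11.

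By role, the RNA of the 10 genes was divided differently in the HCC827 groups. The anti-apoptotic genes held 52.2% and 48.8% of the 10 genes' summed FPKM in resistant HCC827, against 66.1% and 69.2% in DMSO HCC827. The BH3-only genes held 30.05% and 29.5% in resistant HCC827, against 20.0% and 19.0% in DMSO HCC827, and the effectors 17.8% and 21.6%, against 14.0% and 11.8%. Set against the sum of BCL2L1 and MCL1, the BH3-only sum was 0.576 and 0.604 in resistant HCC827, against 0.302 and 0.274 in DMSO HCC827. BIK alone made up 7.09% and 11.1% of the 10 genes' FPKM in resistant HCC827, against 3.12% and 2.23% in DMSO HCC827. Other family genes are outside these sums, among them the anti-apoptotic genes BCL2A1, higher in both resistant HCC827 libraries, and BCL2L2, lower in both.

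In HCC4006 the anti-apoptotic and BH3-only shares of the groups overlapped, and the effector share did not, with 20.8% and 20.7% in resistant HCC4006, against 20.1% and 19.2% in DMSO HCC4006. The anti-apoptotic genes held 57.1% and 56.6% in resistant HCC4006, against 55.3% and 67.2% in DMSO HCC4006, and the BH3-only genes 22.1% and 22.7%, against 24.5% and 13.7%. Within the BH3-only genes, PMAIP1 held 7.52% and 7.96% of the 10 genes' FPKM in resistant HCC4006, against 3.62% and 3.26% in DMSO HCC4006. BID held 10.2% and 10.7% in resistant HCC4006, against 4.65% and 4.85% in DMSO HCC4006. BMF held 1.19% and 0.657% in resistant HCC4006, against 10.1% and 1.99% in DMSO HCC4006. These shares are a description, with no test.

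**Figure D4:**
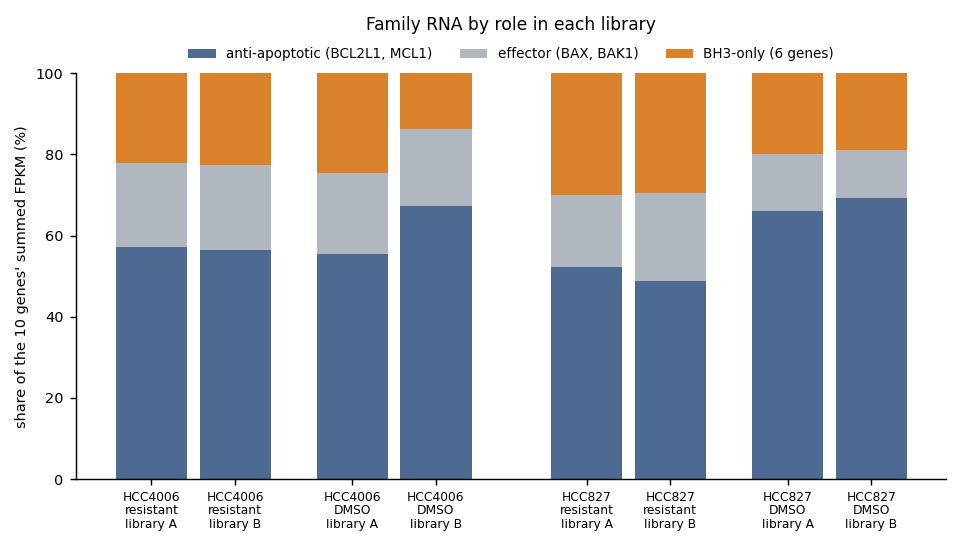
Share of the summed FPKM of the 10 genes in percent (vertical axis) held by anti-apoptotic, effector and BH3-only genes in each of the 8 libraries (horizontal axis). The anti-apoptotic share was 52.2% and 48.8% in resistant HCC827, against 66.1% and 69.2% in DMSO HCC827, while the HCC4006 groups overlap in that share.

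In order of mean level, MCL1 and BCL2L1 took the first 2 places and BAX the third in all 4 groups. MCL1 and BCL2L1 were not separable beyond their spread in DMSO HCC4006, with means of 1270 ± 5.38 and 1356 ± 470 FPKM (SD, n = 2). The lowest member was BIK in resistant and DMSO HCC4006, BBC3 in resistant HCC827 and BID in DMSO HCC827. BIK averaged 7.35 ± 2.60 FPKM in resistant HCC4006, and its percentile among rows above 0 was 23.4, against 52.1 in DMSO HCC4006. In HCC827 its percentile was 84.7 in the resistant group, against 60.8 in the DMSO group. MCL1 stayed between the 95 and 96.8 percentiles in the 4 groups.

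Of the other family genes, BCL2, the founding anti-apoptotic gene, was listed at 0 in all libraries except DMSO library A of HCC827, with 0.437 FPKM. BCL2L2, which encodes BCL-W, measured 74.2 and 66.3 FPKM in resistant HCC4006, against 165 and 91.7 FPKM in DMSO HCC4006 (adjusted p = 0.312), and between 130.5 and 169 FPKM in HCC827. BCL2A1, an NF-kB target that protects cells, measured 240.2 and 262 FPKM in resistant HCC827, against 129.7 and 53.1 FPKM in DMSO HCC827 (log2 change 1.59, adjusted p = 0.202, and 0.95 to 2.23 without each library in turn), and at most 15.8 FPKM in HCC4006. BAD, a BH3-only gene whose product growth factor signalling inactivates, had log2 changes of −0.29 in HCC4006 (adjusted p = 0.535) and −0.01 in HCC827 (adjusted p = 0.997). Of the 5 other anti-apoptotic genes looked up, 4 were tested in HCC4006 and 3 in HCC827, and 0 were called in either line. Their medians were −0.45 and −0.19.

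Of the 9 other pro-apoptotic family genes, 5 were tested in HCC4006 with 0 called. In HCC827, where 5.13% of all rows were called higher, 7 were tested and 2 were called higher, BCL2L14 and the mitophagy gene BNIP3L. Both were listed at 0 in DMSO HCC827, and measured 47.9 and 38.1 FPKM (BCL2L14) and 672 and 631 FPKM (BNIP3L) in resistant HCC827. Both were also listed at 0 in all 4 HCC4006 libraries. Each call rests on a DMSO group listed at 0, and the fit over rows above 0 alone gave no value for either gene. On hg19, BCL2L14 shares its locus with 5 other rows and BNIP3L with 8. Both calls were lost without either DMSO library (adjusted p = 0.0609 to 0.0759). The list's medians were −0.58 in HCC4006 and −0.01 in HCC827.

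Downstream of the pore, 1 of 8 genes for pore partners and released factors was called higher in each line. Over all rows tested, 6.37% were called higher in HCC4006 and 5.13% in HCC827. It was HTRA2, a mitochondrial protease gene, listed at 0 in both DMSO groups. Its calls rest on these values, and the fit over rows above 0 alone gave no value for it. It measured 165 and 197 FPKM in resistant HCC4006 and 172 and 256 FPKM in resistant HCC827. HTRA2 shares its hg19 locus with 9 other rows. Its HCC827 call was lost without either DMSO library (adjusted p = 0.0739 and 0.0609). The other 7 did not pass in either line, and the list's medians were 0.43 in HCC4006 and −0.31 in HCC827. Of the 6 apoptosome and caspase genes reported here, 0 were called in either line, with medians of −0.41 in HCC4006 and −0.22 in HCC827. The apoptosome genes CASP9 and APAF1 had log2 changes of −0.62 and −0.75 in HCC4006 (adjusted p = 0.328 and 0.224) and 0.16 and 0.03 in HCC827 (adjusted p = 0.885 and 0.981).

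Of 6 genes found for inhibitor of apoptosis proteins, BIRC3 was called higher in HCC4006 and 0 were called in HCC827. BIRC3, which encodes an NF-kB induced ubiquitin ligase, measured 367 and 437 FPKM in resistant HCC4006, against 127 and 94.0 FPKM in DMSO HCC4006 (log2 change 1.87, SE 0.25, adjusted p = 0.0302). It was lost over rows above 0 alone (0.075), in the fit of all 8 libraries (0.101), with a replicate block (0.0725) and without each library in turn (0.0521 to 0.366). BIRC5, the survivin gene of dividing cells, was at 931 and 996 FPKM in resistant HCC4006, against 198 and 1065 FPKM in DMSO HCC4006 (adjusted p = 0.532, and 0.0216 without DMSO library B), with its low value in the DMSO library where DDIT3 peaked. XIAP, a direct caspase inhibitor, had log2 changes of −0.14 and 0.09 (adjusted p = 0.895 and 0.958). The list's medians were 0.55 in HCC4006 and 0.11 in HCC827.

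Of 12 death receptor and adaptor genes, 11 were tested in each line, with 1 called lower in HCC4006 (median −0.36) and 0 called in HCC827 (median 0.19). The decoy receptor gene TNFRSF10C fell in HCC4006, with 8.23 and 7.21 FPKM in the resistant libraries, against 61.1 and 33.9 FPKM in the DMSO libraries (log2 change −2.49, SE 0.38, adjusted p = 0.0403). In HCC827 it measured 76.2 and 42.7 FPKM in the resistant libraries, against 37.6 and 15.04 FPKM in the DMSO libraries (adjusted p = 0.366), and the change in HCC827 minus that in HCC4006 was 3.73 (adjusted p = 0.0294). Its HCC4006 call was lost over rows above 0 alone (0.0991), with a replicate block (0.0501) and without each library except DMSO library B (0.0639 to 0.445). Without DMSO library B it was called (0.0384). The difference between the lines was lost over rows above 0 alone (0.0607) and without 6 of the 8 libraries in turn (0.0642 to 0.154).

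Of 14 transcriptional regulators of the family reported here, 13 were tested in HCC4006 with 1 called higher and 14 in HCC827 with 1 called lower, and the medians were −0.06 and −0.20. Both calls were TP73. It was listed at 0 in DMSO HCC4006, with 41.2 and 36.5 FPKM in resistant HCC4006, and listed at 0 in resistant HCC827, with 35.6 and 21.8 FPKM in DMSO HCC827. The HCC827 call was lost without each library in turn. The HCC4006 call was kept under all 13 alternatives that gave a value. All of these still held DMSO values listed at 0, so they cannot tell how firm the call is. The alternative with rows above 0 alone gave no value for TP73, because each line had a group listed at 0. TP73 shares its hg19 locus with 3 other rows. FOXO3, whose product is known to turn on BCL2L11 and BBC3 when growth factor signals stop, had log2 changes of −0.21 and −0.22 (adjusted p = 0.671 and 0.782). Of 10 turnover regulators tested in each line, such as the MCL1 ubiquitin ligase gene HUWE1, 0 were called, with medians of 0.15 in HCC4006 and −0.18 in HCC827.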

How the data were processed

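Gene-level FPKM were deposited by the authors in 2 tables, 1 per cell line. Per the submitters' processing notes, TopHat 1.4.1, Cufflinks 1.3.0 and Cuffdiff were used with hg19; the annotation and options were not given there. Per the labels' protocols, the library kit was TruSeq RNA v2, which keeps no strand. Column letters A and B were not tied to the replicate numbers, and 0 per-sample columns were left unused. Rows were found by exact symbol, with 89 of 93 list genes found (NAIP, MDM2, KRT18 and PECAM1 were not).

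On the log2(FPKM + 0.5) scale, limma 3.58.1 under R 4.3.3 (lmFit, eBayes with trend) was run per line with 4 libraries, and over 8 libraries for the difference between lines, keeping rows whose mean reached 0.5 FPKM. The fit over rows above 0 alone was tested on simulated data, and the main fit was not. The tested fit recovered the seeded changes in size, but called them only when the simulated spread was made smaller than that of these libraries. A missed call therefore says little. The replicate block, pseudocounts of 0.1 and 1, other filters and scalings, and leaving out each library were tried as alternatives.

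All members are named, with list genes that were called and 9 others named whether called or not. Some further list genes that were not called are also named: DDIT3 and ATF4, chosen after their values were seen, HUWE1 as an example, and cell type markers. Some other list genes are not reported here, and the list counts and medians leave them out. The members and lists were chosen with earlier results of these data known.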

Additional observations from a re-analysis of the deposited data

Results flagged for a closer look

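Of the 10 members and the 89 list genes found, some were not tested. Between the 2 lines, the change (HCC827 minus HCC4006) differed by limma's test for 10 of these genes. Each has a Benjamini-Hochberg adjusted p over 20685 rows, of which 12.1% passed the same test. For BIK, the adjusted p was 0.0041, with a difference of 4.68 on the log2 scale. For the decoy receptor gene TNFRSF10C it was 0.0294, with a difference of 3.73. For BCL2L14 it was 0.000312, for BNIP3L 3.53e-05 and for TP73 3.53e-05. Each of these 3 was listed at 0 in at least 1 whole group, so the size of its difference is not given. The epithelial markers CDH1 (8.61e-05), CLDN7 (0.00167), KRT19 (0.00596) and EPCAM (0.00623) and the lysozyme gene LYZ (0.023) also passed. LYZ was listed at 0 in resistant HCC4006 and both HCC827 groups, and measured 3.90 and 2.35 FPKM in DMSO HCC4006. The KRT19 difference was lost without either resistant HCC4006 library (0.0542 and 0.0503), and that of LYZ with the replicate block (0.0952). The part of the epithelial markers in the BIK result was not tested.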

How the results depend on the processing

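The number of members called in HCC4006 was 0 over rows above 0 alone, 0 with the replicate block by column letter, and between 0 and 2 when each library was left out (BBC3 and BID without DMSO library B). It was 0 in HCC827 under all 14 alternatives. For the difference between the lines, BIK alone was called under every alternative that kept all 8 libraries. Same-lettered libraries had a correlation of deviations of −0.0871 in HCC4006 and 0.215 in HCC827 over 14642 rows. With 2 letters and no label on what they mark, the data do not settle whether the letters pair the libraries. Over rows above 0 alone, 88 rows were called in HCC4006, 19 in HCC827 and 212 for the difference, against 1860, 1314 and 2501 over all rows. Without DMSO library B of HCC4006, 3565 rows were called there and 3857 for the difference, and 1666 for the difference without resistant library B of HCC4006. Without either DMSO library of HCC827, 0 rows were called in that line by limma.

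Signs turned only for values that had not passed the test. When each library was left out in turn, values in HCC4006 ran from −0.77 to 0.50 for XIAP, from −0.15 to 2.28 for BIRC5 and from −0.45 to 0.025 for FOXO3. In HCC827 they ran from −0.57 to 0.032 for BCL2L11, from −0.27 to 1.17 for BMF, from −0.49 to 0.48 for BAD, from −0.32 to 0.39 for APAF1, from −0.31 to 0.62 for CASP9, from −0.68 to 0.86 for XIAP and from −0.55 to 0.12 for FOXO3. For the difference between the lines they ran from −0.20 to 0.76 for BAD, from −0.54 to 0.999 for XIAP and from −0.34 to 0.33 for FOXO3. Quantile normalization put APAF1 at −0.13 and CASP9 at −0.098 in HCC827 and the FOXO3 difference at 0.088. Median scaling put BAD at 0.10 in HCC827 and the FOXO3 difference at 0.061. The causes were not tested. Where a library is left out, the lone sample is assumed to vary like the other group. Rows of a symbol were not summed, and each member has 1 row.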
